A study of Mus musculus with 2 samples.

Results

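Non-coding transcripts of 7 gene names were grouped here under the label of naive T cell gene loci. They were compared between spleen of mice given collagen-induced arthritis (CIA) and spleen of healthy mice, as 1 library each. Whether these loci mark naive rather than other T cells was not tested. The set comprised the assembled transcripts lying inside introns of Lef1, Bcl11b, Themis and Il7r, 36 in all, and the annotated long non-coding RNAs (lncRNAs) Gm42449 at Lef1, Gm26551 at Tcf7 and Gm44175 near Cd8a. Members were chosen by gene name and by the position class "inside an intron". The rule itself used no values, but it was drawn up with earlier results of these data known. These 39 transcripts came from 32012 in both tables. In the CIA group, arthritis was raised with type II collagen, and mice were killed 42 days after the first immunization by 1 label, although the sample title gives day 40. Healthy mice had no treatment and also carry day 40 in the title. The labels give neither strain, age nor the number of mice behind a library. With 1 library per group there is no replicate check: "CIA spleen" and "healthy spleen" below each stand for 1 library, and library and condition cannot be told apart.

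Levels are in FPKM, fragments per kilobase of transcript and 1000000 mapped fragments, so they may be compared between transcripts of different length. FPKM keeps no read counts, and the sequencing depth and counting error are therefore unknown. Ratios are given as log2((CIA FPKM + 0.1)/(healthy FPKM + 0.1)) unless a plain fold is stated, and a difference of 2-fold, a log2 ratio of 1, was used as the size rule. Messenger RNA levels were not analysed here, so cell type markers were read through the intronic RNA of their genes. Coordinates are those of GRCm38.

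Naive T cells are mature T cells that have not met their antigen, and they circulate through spleen and lymph nodes. Lef1 and Tcf7 encode related DNA-binding proteins of the TCF/LEF family, which act with beta-catenin at the end of the Wnt pathway and are abundant in naive T cells. Bcl11b encodes a zinc finger transcription factor needed for commitment to the T lineage. Themis encodes an adaptor of T cell receptor signalling needed in thymocyte selection. Il7r encodes the alpha chain of the interleukin 7 receptor, through which naive T cells receive a survival signal. Cd8a encodes a chain of the CD8 co-receptor of cytotoxic T cells. Libraries made by removing ribosomal RNA also hold unspliced precursor RNA, whose introns appear beside separate non-coding transcripts.

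Intronic RNA of all 4 host genes was more abundant in CIA spleen. Of the 36 intronic transcripts, 35 were higher in CIA spleen and 31 were at least 2-fold higher. Among the 12558 intronic transcripts of all genes that had at least 0.5 FPKM in either library, 63.7% were higher and 15.6% were 2-fold higher. No intronic transcript of the 4 genes was 2-fold lower, against 10.3% of all intronic transcripts. Their median log2 ratio was 1.42, compared with 0.25 over all intronic transcripts. All 36 had at least 0.5 FPKM in either library, and none stood at 0 in a library. MSTRG.3245.1 of Themis reached 0.5 FPKM in CIA spleen alone. Weighted by length, the 36 transcripts together covered 101.4 kb at 3.28 FPKM in CIA spleen and 1.06 FPKM in healthy spleen, a 3.08-fold ratio. In bulk spleen RNA, more T cells and more RNA per T cell cannot be told apart.

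The median ratio was similar with each host gene left out. Without Lef1 the median log2 ratio of the remaining transcripts was 1.39, and 19 of 23 were 2-fold higher. Without Bcl11b it was 1.40, with 26 of 29. Leaving out Themis gave 1.42 with 18 of 22, and leaving out Il7r gave 1.45 with 30 of 34. The whole table was also shifted towards the CIA library, by 0.25 for the intronic and by 0.30 for the annotated transcripts on the log2 scale. Relative to the annotated shift, 25 of the 36 transcripts were 2-fold higher, against 9.97% of all intronic transcripts. The differences were mostly between 2-fold and 4-fold. With the pseudocount of 0.1 FPKM, 1 of the 36 transcripts was at least 4-fold higher, against 4.24% of all intronic transcripts. Without it, the plain ratios of MSTRG.3245.1, MSTRG.3240.1, MSTRG.25176.1 and MSTRG.9041.1 were 5.75-fold, 4.45-fold, 4.16-fold and 4.14-fold.

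Of the 36 transcripts, 35 had 1 exon and 33 had no assigned strand, which is usual in this table, where 92.8% of all intronic transcripts had 1 exon and 75.0% had no strand. Each lay within 1 intron of the host's main GENCODE model, and none overlapped an annotated exon. Strand is not stated for the libraries, so precursor RNA of the host, a separate transcript within the intron and RNA of the opposite strand could not be told apart.

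Before the values by gene, the DNA in which these transcripts lie is shown where the reference tables hold it. RefSeq (GRCm38.p6) promoter windows were found for all 4 host genes, and the 250 bases before a start were searched on both strands for CTTTGA (read on the other strand as TCAAAG), core letters recognised by TCF/LEF proteins, and likewise for GGGCGG, the GC box recognised by Sp1-type factors. Lef1, the host gene with the highest median ratio, had 4 windows. Shown first are that at its most upstream start (chr3:131110047-131110296, plus strand) and that at another RefSeq start 45.8 kb into the gene, inside intron 3 (chr3:131156044-131156293, plus strand). The other Lef1 windows are not described here. Themis had 2 windows, and that at the gene start (chr10:28668110-28668359, plus strand) is set beside those of Lef1. Capitals mark motif matches.
Lef1 upstream start: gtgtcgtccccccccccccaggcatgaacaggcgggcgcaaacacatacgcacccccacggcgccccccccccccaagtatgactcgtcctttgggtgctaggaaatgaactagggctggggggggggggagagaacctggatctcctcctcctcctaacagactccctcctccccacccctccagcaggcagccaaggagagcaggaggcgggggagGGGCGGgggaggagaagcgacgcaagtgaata
Lef1 start in intron 3: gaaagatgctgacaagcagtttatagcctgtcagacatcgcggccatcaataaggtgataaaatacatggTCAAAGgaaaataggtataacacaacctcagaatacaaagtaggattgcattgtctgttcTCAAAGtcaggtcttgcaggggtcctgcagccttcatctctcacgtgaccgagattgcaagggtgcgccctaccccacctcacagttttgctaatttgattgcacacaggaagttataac
Themis start: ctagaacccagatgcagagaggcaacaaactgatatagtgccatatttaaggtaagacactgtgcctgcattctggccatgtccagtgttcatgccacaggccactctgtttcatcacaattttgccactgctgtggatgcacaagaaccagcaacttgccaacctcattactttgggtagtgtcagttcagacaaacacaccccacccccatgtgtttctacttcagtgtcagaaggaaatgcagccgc

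The upstream Lef1 window held 1 GC box, ending 26 bases before the start, and no CTTTGA. The Lef1 window in intron 3 held 2 TCAAAG matches and no GC box. The Themis window shown held neither motif. The Bcl11b window held 1 CTTTGA and the Il7r window neither, and both overlap annotated exons and are only described. Of all 32851 RefSeq windows, 13.8% held CTTTGA and 32.7% held GGGCGG on either strand. The upstream Lef1 window was rich in G and C, at 66.4% with 11 CpG, against medians of 52.4% and 6 CpG over all windows. Bcl11b had 44.8% and 9 CpG, Themis 48.0% and 1 CpG, and Il7r 44.0% and 1 CpG. A match is a description of the letters, not evidence that a factor binds there.

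Lef1 (chr3:131110471-131224356, plus strand, 12 exons over 113.9 kb) carried 13 intronic transcripts, all higher in CIA spleen and 12 of them at least 2-fold. Levels ran between 2.74 and 5.80 FPKM with a median of 3.77 in CIA spleen, and between 0.807 and 1.94 FPKM with a median of 1.21 in healthy spleen. The ranges did not overlap. All 13 values on each side come from 1 gene in 1 library and are not replicates. How often the ranges of other host genes separate was not counted, so nothing is concluded from the separation. The median log2 ratio was 1.51, and the length-weighted level was 3.67 FPKM against 1.16 FPKM, a 3.16-fold ratio. Together the 13 transcripts covered 46.1% of the 110.4 kb of Lef1 introns.

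Transcripts lay in 5 of the 11 Lef1 introns, and 8 of them lay in intron 3, which at 69.1 kb is the longest. Length-weighted levels in intron 3 were 3.77 FPKM in CIA spleen and 1.18 FPKM in healthy spleen. Intron 11, the next in length, had 3.33 FPKM against 1.09 FPKM over 2 transcripts. The 3 introns with 1 transcript each had 3.86 against 0.928 FPKM in intron 4, 5.80 against 1.85 FPKM in intron 6 and 2.95 against 1.11 FPKM in intron 8. The plain ratios of the 5 introns thus stayed between 2.67-fold in intron 8 and 4.16-fold in intron 4, with intron 3 at 3.19-fold.

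The highest Lef1 ratio belonged to MSTRG.25176.1 (chr3:131188156-131189230), 74 bases from an exon in intron 4, with 3.86 FPKM in CIA spleen and 0.928 FPKM in healthy spleen and a log2 ratio of 1.94. MSTRG.25170.1, 10658 bases long in intron 3 (chr3:131141471-131152128), had 3.88 FPKM against 0.995 FPKM, a log2 ratio of 1.86. MSTRG.25173.1 in the same intron had 2.74 FPKM against 0.807 FPKM, a log2 ratio of 1.65. These 3 transcripts had CIA levels near the middle or at the bottom of the Lef1 range and healthy levels among its lowest.

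The lowest Lef1 ratio, 0.60, belonged to MSTRG.25171.1 (chr3:131153417-131153929), 513 bases long, with 3.0 FPKM in CIA spleen and 1.94 FPKM in healthy spleen. MSTRG.25174.1 had 3.19 FPKM against 1.29 FPKM, a log2 ratio of 1.25. MSTRG.25178.1 had 2.95 FPKM against 1.11 FPKM, a log2 ratio of 1.34. The most abundant transcript by mean FPKM was the 263-base MSTRG.25177.1 in intron 6, with 5.80 FPKM against 1.85 FPKM and a log2 ratio of 1.60. MSTRG.25167.1, nearest to the start of the gene at 15.1 kb, followed with 4.65 FPKM against 1.78 FPKM, a log2 ratio of 1.34. Of all Lef1 transcripts, MSTRG.25171.1 alone had less than a 2-fold ratio, and its healthy level was the highest of the 13 while its CIA level was among the lowest.

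The RefSeq start in intron 3 lies between MSTRG.25171.1 and MSTRG.25172.1. MSTRG.25172.1 (chr3:131157775-131170600, 12826 bases, named here after its values were seen) is the longest of the 36 transcripts and the 1 assigned to the strand opposite to its host. It had 3.77 FPKM in CIA spleen and 1.17 FPKM in healthy spleen, a log2 ratio of 1.61, close to the Lef1 median.

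**Figure D1:**
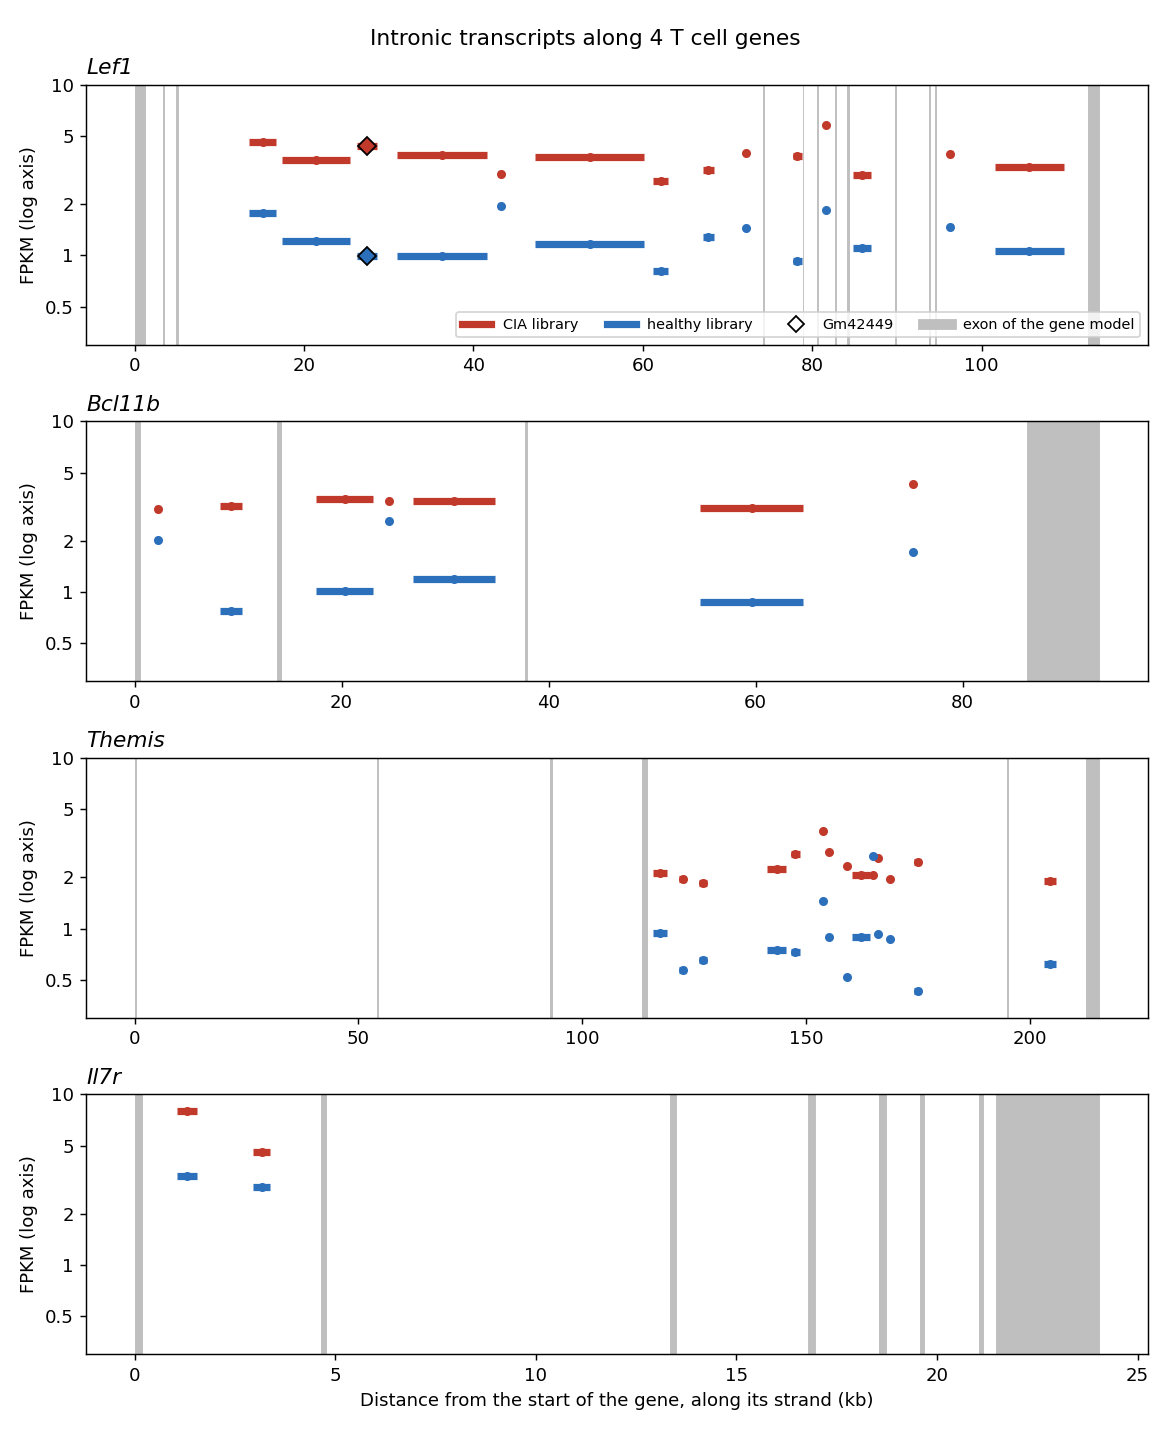
FPKM (log axis) of each intronic transcript along Lef1, Bcl11b, Themis and Il7r, by distance from the start of the gene in kb. Horizontal bars span each transcript in CIA (red) and healthy (blue) spleen, points mark its middle, grey bands are exons and diamonds mark Gm42449. Lef1 levels were 2.74 to 5.80 FPKM in CIA spleen and 0.807 to 1.94 FPKM in healthy spleen along the whole gene.

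Bcl11b (chr12:107910403-108003602, minus strand, 4 exons over 93.2 kb) carried 7 intronic transcripts in all 3 of its introns, all higher in CIA spleen and 5 at least 2-fold. Levels ran between 3.09 and 4.30 FPKM with a median of 3.41 in CIA spleen, and between 0.776 and 2.62 FPKM with a median of 1.19 in healthy spleen. Here too the ranges did not overlap, with the same limits as for Lef1. The length-weighted level was 3.31 FPKM against 1.04 FPKM, a 3.17-fold ratio, and the median log2 ratio was 1.44.

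In intron 1, MSTRG.9041.1 (chr12:107993228-107995360) had 3.21 FPKM in CIA spleen and 0.776 FPKM in healthy spleen, the highest Bcl11b log2 ratio at 1.92. MSTRG.9042.1, 480 bases long in the same intron, had 3.09 FPKM against 2.03 FPKM, a log2 ratio of 0.58. The pair thus had nearly equal CIA levels and differed in healthy spleen.

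Intron 2 held MSTRG.9040.1 (5497 bases), with 3.52 FPKM in CIA spleen and 1.01 FPKM in healthy spleen and a log2 ratio of 1.70. MSTRG.9038.1 (7873 bases) had 3.41 FPKM against 1.19 FPKM, a log2 ratio of 1.44. Between them lay the 371-base MSTRG.9039.1 (chr12:107978830-107979200), with 3.43 FPKM against 2.62 FPKM and the lowest Bcl11b log2 ratio, 0.38. Its CIA level matched those of its long neighbours, and its healthy level was the highest of the gene.

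In intron 3, the longest at 48.3 kb, MSTRG.9036.1 (9956 bases) had 3.11 FPKM in CIA spleen and 0.874 FPKM in healthy spleen, a log2 ratio of 1.72. The 239-base MSTRG.9035.1, also in intron 3, had 4.30 FPKM against 1.71 FPKM, a log2 ratio of 1.29. By intron, the plain length-weighted ratios were 3.17-fold, 2.98-fold and 3.51-fold for introns 1, 2 and 3. The 4 Bcl11b transcripts of at least 1000 bases had log2 ratios between 1.44 and 1.92, and the 3 shorter ones between 0.38 and 1.29.

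Themis (chr10:28668360-28883815, plus strand, 6 exons over 215.5 kb) carried 14 intronic transcripts, of which 13 were higher in CIA spleen, all 13 by at least 2-fold. Levels ran between 1.84 and 3.74 FPKM with a median of 2.19 in CIA spleen, and between 0.430 and 2.65 FPKM with a median of 0.807 in healthy spleen. The ranges overlapped because of 1 healthy value, that of MSTRG.3242.1 at 2.65 FPKM. The length-weighted level was 2.24 FPKM against 0.793 FPKM, a 2.82-fold ratio, and the median log2 ratio was 1.43.

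Themis transcripts lay only in the 3' introns of the gene. Introns 1, 2 and 3, of 53.7, 38.5 and 20.1 kb, held none, intron 4 of 80.6 kb held 13, and intron 5 held 1. The nearest to the start lay 117.4 kb into the gene. Length-weighted levels were 2.28 FPKM against 0.815 FPKM in intron 4, a 2.80-fold ratio. In intron 5, MSTRG.3246.1 had 1.89 FPKM against 0.621 FPKM, a 3.04-fold ratio.

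The highest log2 ratio of all 36 intronic transcripts, 2.28, belonged to MSTRG.3245.1 (chr10:28842399-28844089), with 2.47 FPKM in CIA spleen and 0.430 FPKM in healthy spleen. MSTRG.3240.1 had 2.31 FPKM against 0.519 FPKM, a log2 ratio of 1.96. MSTRG.3237.1 had 2.72 FPKM against 0.727 FPKM, a log2 ratio of 1.77. All 3 lie in intron 4, and the first pair had the lowest healthy levels of the 36 transcripts.

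The 1 transcript lower in CIA spleen was the 233-base MSTRG.3242.1 (chr10:28833215-28833447), the shortest of the 36, with 2.07 FPKM in CIA spleen and 2.65 FPKM in healthy spleen and a log2 ratio of -0.35. MSTRG.3244.1 had 1.94 FPKM against 0.868 FPKM, a log2 ratio of 1.08, and MSTRG.3232.1 had 2.13 FPKM against 0.943 FPKM, a log2 ratio of 1.10. These are the transcripts just inside the 2-fold limit, and the nearest outside it was MSTRG.12999.1 of Il7r at 0.65. MSTRG.3238.1 was the most abundant Themis transcript, with 3.74 FPKM against 1.46 FPKM and a log2 ratio of 1.30. MSTRG.3236.1 (chr10:28809694-28813883) was the 1 spliced transcript of the 36, with 2 exons on the strand of Themis, and had 2.24 FPKM against 0.746 FPKM. Its log2 ratio of 1.47 lay near the Themis median, so the spliced transcript did not stand apart from the unspliced ones.

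Il7r (chr15:9505788-9529835, minus strand, 8 exons over 24.0 kb) carried 2 intronic transcripts, both in intron 1 and both short. MSTRG.13000.1 (chr15:9528278-9528781, 504 bases, strand of Il7r) had 7.99 FPKM in CIA spleen and 3.33 FPKM in healthy spleen, a log2 ratio of 1.24. MSTRG.12999.1 (chr15:9526458-9526883, 426 bases) had 4.58 FPKM against 2.88 FPKM, a log2 ratio of 0.65. Both values of CIA spleen were above both of healthy spleen, each pair coming from 1 library and with the same limits as for Lef1. The length-weighted ratio was 2.06-fold, with 6.43 FPKM against 3.13 FPKM, and the levels per length were the highest of the 4 genes in either library. A further Il7r transcript outside the set, MSTRG.12997.3, shares a splice junction with the gene and has 3 exons, and it had 5.72 FPKM against 3.75 FPKM, a log2 ratio of 0.60.

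Ratios showed no order along the genes. Spearman's rho between the distance from the gene start and the log2 ratio was 0.02 over the 13 Lef1 transcripts, 0 over the 7 of Bcl11b and -0.02 over the 14 of Themis, all points coming from the same 2 libraries. Over the 36 transcripts, rho between transcript length and log2 ratio was 0.45, compared with 0.17 over all intronic transcripts. By gene it was 0.29 for Lef1, 0.64 for Bcl11b and 0.002 for Themis, so the pooled value does not describe each gene. Over the 36, length went with the healthy level, at a rho of -0.44, more than with the CIA level, at -0.14. The same order held in Lef1 (-0.53 against -0.24) and Bcl11b (-0.64 against -0.43), but not in Themis (-0.14 against -0.25).

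All 21 transcripts of at least 1000 bases were at least 2-fold higher in CIA spleen, against 9.22% of the 5404 intronic transcripts of that length over all genes. The limit of 1000 bases was chosen after seeing the data, so this complete count is a description only. Their log2 ratios ran between 1.10 and 2.28 with a median of 1.54, compared with a median of 0.33 for all intronic transcripts of that length. Of the 15 shorter transcripts, 10 were 2-fold higher, with a median of 1.29 against 0.10 for all short ones. The 5 transcripts that were not 2-fold higher, MSTRG.25171.1 of Lef1, MSTRG.9042.1 and MSTRG.9039.1 of Bcl11b, MSTRG.3242.1 of Themis and MSTRG.12999.1 of Il7r, were at most 513 bases long. The 7 transcripts of at least 5000 bases had log2 ratios between 1.44 and 1.86 with an SD of 0.15. All intronic transcripts of that length had a median of 0.38 with an SD of 0.69. The largest spread was among the 8 transcripts under 500 bases, at an SD of 0.69, compared with 1.59 for all intronic transcripts that short. A short transcript holds fewer fragments at the same FPKM, and how far its counting error enters these ratios was not tested.

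**Figure D2:**
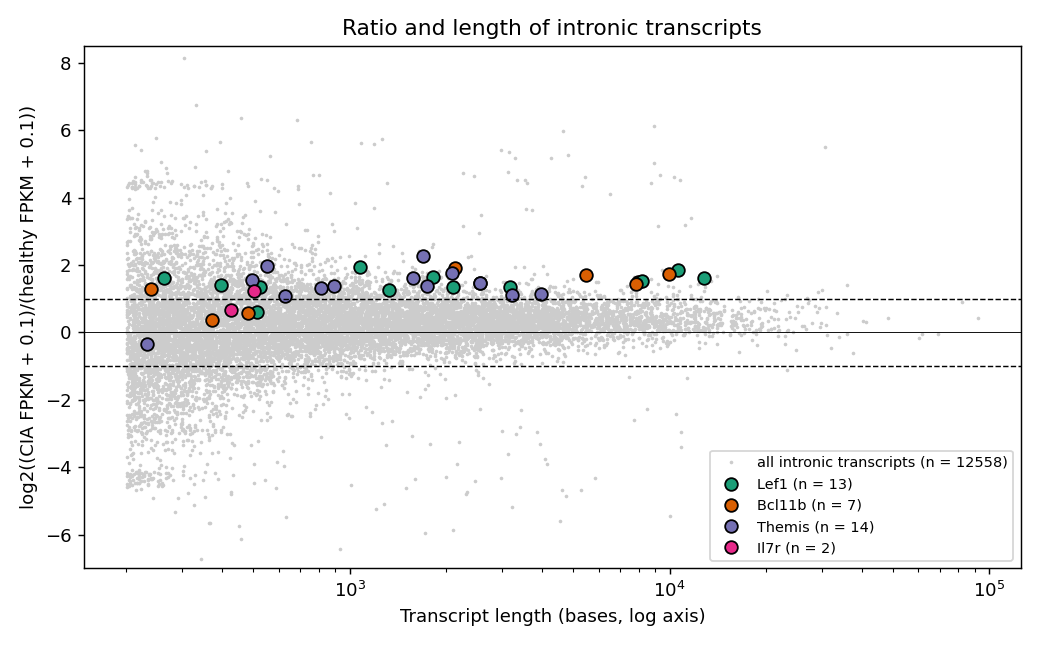
Log2 ratio of CIA to healthy FPKM (pseudocount 0.1) against transcript length in bases (log axis) for the intronic transcripts of Lef1, Bcl11b, Themis and Il7r in colour and all 12558 intronic transcripts in grey, with dashed lines at 2-fold. All 21 coloured points of at least 1000 bases, a limit chosen after seeing the data, lie above the upper line. The 5 not above it are at most 513 bases long.

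Each of the 3 annotated lncRNAs was 2-fold higher or more in CIA spleen, against 15.7% of the 3068 annotated transcripts that passed the filter of 0.5 FPKM, whose median log2 ratio was 0.30. Their sequences were taken from GENCODE M21 for all 3. Stretches are shown where CTTTGA, the TCF/LEF letters, occurs more than once close together, and across the splice junction that separates a spliced lncRNA from continuous intron RNA. Reads across the junctions were not counted. The stretch of Gm42449 is chr3:131137224-131137360 (plus strand) and that of Gm44175 is chr6:71357078-71357251 (minus strand), with CTTTGA or TCAAAG in capitals. For the junction lines, capitals mark the 4 bases on each side of the splice junction between exons 1 and 2.
Gm42449 motif stretch: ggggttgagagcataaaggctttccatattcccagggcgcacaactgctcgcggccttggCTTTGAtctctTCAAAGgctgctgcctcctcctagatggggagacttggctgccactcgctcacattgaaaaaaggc
Gm44175 motif stretch: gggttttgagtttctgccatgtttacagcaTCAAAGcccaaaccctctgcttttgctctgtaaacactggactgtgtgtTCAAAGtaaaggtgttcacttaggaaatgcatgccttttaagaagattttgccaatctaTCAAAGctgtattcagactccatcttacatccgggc
Gm44175 junction: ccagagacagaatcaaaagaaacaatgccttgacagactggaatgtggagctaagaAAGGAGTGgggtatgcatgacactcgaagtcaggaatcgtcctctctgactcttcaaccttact
Gm26551 junction: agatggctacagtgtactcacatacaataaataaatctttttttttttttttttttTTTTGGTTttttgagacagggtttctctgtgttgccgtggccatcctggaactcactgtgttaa

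Gm42449 (ENSMUST00000200349, chr3:131136785-131139042, plus strand, 1 exon of 2258 bases, GENCODE type TEC) lies wholly inside Lef1 intron 3 on the strand of Lef1, 21.2 kb after exon 3. It had 4.38 FPKM in CIA spleen and 0.996 FPKM in healthy spleen, a log2 ratio of 2.03 that ranked 141 of 3068 annotated transcripts. MSTRG.25168.1 ends 0.9 kb before it and MSTRG.25170.1 begins 2.43 kb after it, with log2 ratios of 1.51 and 1.86. The healthy level of Gm42449 was close to the 1.21 and 0.995 FPKM of these neighbours, and its CIA level was above their 3.62 and 3.88 FPKM. As the lncRNA is unspliced and on the host's strand, its reads and those of Lef1 precursor RNA cannot be told apart. It held 4 CTTTGA matches, 1.77 per kb, against 0.809 per kb over all annotated transcripts of the table, and bases 500 to 505 and 511 to 516 are the pair printed above. By windows of 250 bases, 3 of its 9 held CTTTGA and 2 held GGGCGG. Of all such windows of the annotated transcripts, 17.8% held CTTTGA and 5.35% held GGGCGG. No other gene matched its sequence at an E value of at most 1e-20.

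Gm26551 (ENSMUST00000181262, chr11:51949882-52269514, minus strand, 3 exons of 2365, 32 and 35 bases) starts inside Tcf7 intron 2 on the strand of Tcf7, with 97.2% of its bases in that intron. It had 4.45 FPKM in CIA spleen and 1.59 FPKM in healthy spleen, a log2 ratio of 1.43 that ranked 239. That ratio lies beside the 1.42 of the intronic transcripts above, while no assembled intronic transcript was listed for Tcf7 itself. Gm26551 reads in Tcf7 intron 2 and those of Tcf7 precursor RNA cannot be told apart. Bases 2162 to 2360 of Gm26551, 8.18% of its length, matched 133 other genes at up to 88.1% identity, and reads there can be shared with those copies. That stretch ends just before the junction shown above, which falls in a run of T, and introns of 146.4 and 170.8 kb separate the 3 exons. It held 2 CTTTGA matches, 0.822 per kb, close to the rate over all annotated transcripts.

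Gm44175 (ENSMUST00000204863, chr6:71354351-71360829, minus strand, 2 exons of 133 and 4123 bases) lies 12.6 kb before Cd8a on the opposite strand and 16.9 kb from Cd8b1. It had 1.80 FPKM in CIA spleen and 0.370 FPKM in healthy spleen, a log2 ratio of 2.02 that ranked 144. Gm44175 passed the filter of 0.5 FPKM through the CIA library alone, so its direction follows from passing it. It overlaps no intron of the T cell gene near it, unlike the other two. Its 6 CTTTGA matches came to 1.41 per kb, and 3 of them stand in the stretch printed above. By windows of 250 bases, 3 of its 17 held CTTTGA, 17.6% against 17.8% of all windows of the annotated transcripts. Bases 1501 to 1707, 4.86% of its length, matched 1804 other genes at up to 97.2% identity, and reads there can be shared with those copies. No assembled intronic transcript was listed for Cd8a.

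Within 50 kb of Lef1, Bcl11b, Themis, Il7r, Tcf7 and Cd8a lay 5 further annotated lncRNA transcripts. In CIA spleen, 4 of them were 2-fold higher and none 2-fold lower. Over the annotated table these shares came to 15.7% and 6.13%, counted where either library reached 0.5 FPKM. The 4 reached that level in CIA spleen alone, so their direction follows from the filter. Gm43352, antisense across the start of Lef1, had 0.615 FPKM in CIA spleen and 0.202 FPKM in healthy spleen, a log2 ratio of 1.24. A630014C17Rik, antisense across the start of Tcf7, had 0.963 FPKM against 0.359 FPKM, a log2 ratio of 1.21. Gm12207, 15.8 kb from Tcf7 on the opposite strand, had 1.74 FPKM against 1.41 FPKM, a log2 ratio of 0.29. Near Cd8a, Gm44110 and Gm44174 had 0.997 and 0.959 FPKM in CIA spleen and both were listed at 0 in healthy spleen, so no fold is given. Of 7 further assembled transcripts in these windows, not all of them intronic, 2 were 2-fold higher and 1 was 2-fold lower. The shares over all intronic transcripts were 15.6% and 10.3%. None of the 7 lay near Bcl11b or Themis. The lower one, MSTRG.12996.1, an intergenic transcript of 468 bases 3.22 kb beyond the 3' end of Il7r, had 0.396 FPKM against 2.08 FPKM, a log2 ratio of -2.13. The direction was therefore not shared by every transcript beside these genes.

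**Figure D3:**
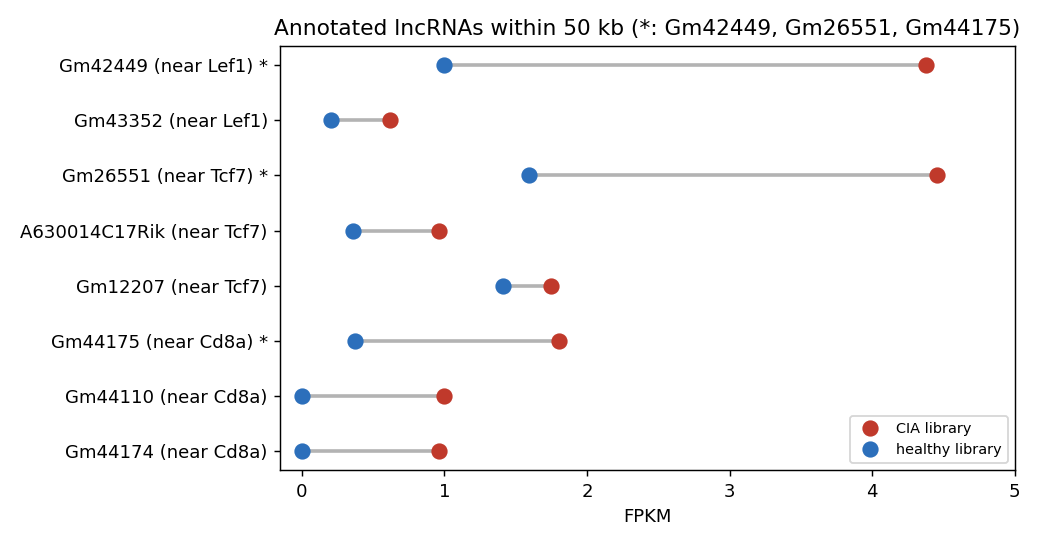
FPKM of 8 annotated lncRNAs at or within 50 kb of Lef1, Tcf7 and Cd8a in CIA (red) and healthy (blue) spleen, joined by a grey line, with asterisks on the 3 lncRNAs of the set. All 8 were higher in CIA spleen, against 68.4% of all annotated transcripts past the filter of 0.5 FPKM in either library. Gm43352, A630014C17Rik, Gm44175, Gm44110 and Gm44174 reached 0.5 FPKM in CIA spleen alone. Their direction follows from passing the filter, so the count of 8 is a description only. Gm42449 stood at 4.38 against 0.996 FPKM, and Gm44110 and Gm44174 were listed at 0 in healthy spleen.

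The authors' deposited table gives a p-value and a q-value per transcript, by a test not given in the sources used here and with 1 library per group. It also marks transcripts as significant, among them intronic transcripts of the set and all the lncRNAs of the set, although none of these had q below 0.05. The rule behind that mark is not described here. In the authors' deposited table, 14 of the 36 intronic transcripts had p below 0.05 with a higher CIA level, against 0.841% of all 12603 intronic transcripts, and all 14 were at least 1000 bases long. Another 10, between 233 and 1691 bases, had p of 1 in the authors' deposited table, MSTRG.3245.1 with the highest ratio among them. None of the 36 had a q below 0.05 in the authors' deposited table, where the lowest p was 0.00575 and the lowest q 0.121, both for MSTRG.9041.1 of Bcl11b. For the lncRNAs, the authors' deposited table gives p = 0.00201 and q = 0.0550 for Gm44175, p = 0.00363 and q = 0.0858 for Gm42449, and p = 0.0448 and q = 0.478 for Gm26551.

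Other genes of the T cell receptor pathway also had more intronic RNA in CIA spleen. Of 27 listed genes, 10 had intronic transcripts, 42 in all, with a median log2 ratio of 1.19. Among the 42, 29 (69.0%) were 2-fold higher and none 2-fold lower, against 15.6% and 10.3% of all intronic transcripts. Prkcq, the kinase downstream of the receptor and CD28, had 8 transcripts with a median of 1.49. Cd247, the receptor's zeta chain, had 8 with a median of 1.05. The adaptor genes Grap2, with 7 transcripts, and Skap1, with 6, had medians of 1.24 and 1.20. Sh2d1a, an adaptor of SLAM receptors, was lower at -0.56 with 1 transcript. Themis, an adaptor of the same pathway, thus had a median ratio between those of Prkcq and Grap2.

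Among T cell transcription factor and quiescence genes, 7 of 16 had intronic transcripts, 70 in all, with a median of 0.71. At least 2-fold higher were 18 (25.7%) and 2-fold lower were 4, against 15.6% and 10.3% of all intronic transcripts. Bach2, a repressor of effector programmes, had 11 transcripts with a median of 1.19. Runx1, Foxp1 and Tox, with 11, 16 and 26 transcripts, had medians of 0.75, 0.65 and 0.52. In the TCF/LEF and Wnt list, 8 of 14 genes had intronic transcripts, and 4 of these 38 transcripts were 2-fold higher while 0 were 2-fold lower (median 0.31), a share of 10.5% that lies below the 15.6% of all intronic transcripts. Tcf7l2, a relative of Lef1, had 15 transcripts with a median of 0.36. Apc, part of the beta-catenin destruction complex, had 5 with a median of 0.43, and Bcl9, a beta-catenin co-activator, had 6 with a median of -0.30. Tcf7l1, also of the TCF/LEF family, had 4 transcripts with a median of 1.99. Interleukin 7 receptor pathway genes had 8 transcripts in 4 of 13 genes, none 2-fold different and all higher, with a median of 0.69. Their hosts were the survival gene Bcl2 with a median of 0.87 over 3 transcripts, Jak1 with 0.60 and Stat5b with 0.38 over 2 each, and Foxo1, a regulator of Il7r, with 0.88 for 1.

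Markers of other spleen cells were read in the same way. B cell markers had 31 transcripts in 8 of 17 genes, with a median of 0.69. Of these, 26 were higher, against 63.7% of all intronic transcripts. At least 2-fold higher were 7, a share of 22.6% against 15.6% of all intronic transcripts, and 2 were at least 2-fold lower. Their summed level was 400.8 FPKM in CIA spleen against 262.0 FPKM in healthy spleen. Ebf1, Pax5, Bank1 and Ralgps2, with 9, 5, 5 and 7 transcripts, had medians of 0.91, 0.83, 0.72 and 0.69. Erythroid markers had 11 transcripts in 4 of 14 genes, 1 of them higher and none 2-fold different, with a median of -0.35 and a sum of 66.3 FPKM against 80.1 FPKM. Proliferation markers had 9 transcripts in 4 of 18 genes, 3 of them higher, none 2-fold higher and 1, of Kif15, at least 2-fold lower, with a median of -0.11 and a sum of 34.1 FPKM against 38.5 FPKM. Effector or activated T cell markers had 6 transcripts in 4 of 15 genes, 3 of them higher, none 2-fold higher and 2 at least 2-fold lower, with a median of -0.28 and a sum of 16.8 FPKM against 17.8 FPKM. By gene this list was split, with medians of 0.43 for Cxcr5 and 0.22 for Cd44 against -0.57 for Il2ra and -1.94 for Tox2. Of the myeloid list 1 of 17 genes, Mertk, had transcripts, 3 with a median of 0.21 and a sum of 13.1 FPKM against 10.1 FPKM. None of the 8 NK and cytotoxic genes had intronic transcripts. By their medians, introns of B cell and T cell receptor genes thus stood higher and those of erythroid genes lower in CIA spleen, and the part of cell composition in the ratios of the 4 host genes was not tested.

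The naive T cell list itself had 38 transcripts in 5 of 14 genes, with a sum of 137.5 FPKM against 58.8 FPKM. It adds to the 36 transcripts 2 of Satb1, a chromatin organiser of T cells, with a median of 0.67. The other genes of the list, among them Tcf7, Ccr7, S1pr1, Cd3e, Cd3d, Cd3g, Cd4 and Cd8a, had no intronic transcript, so the label rests on 5 genes.

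**Figure D4:**
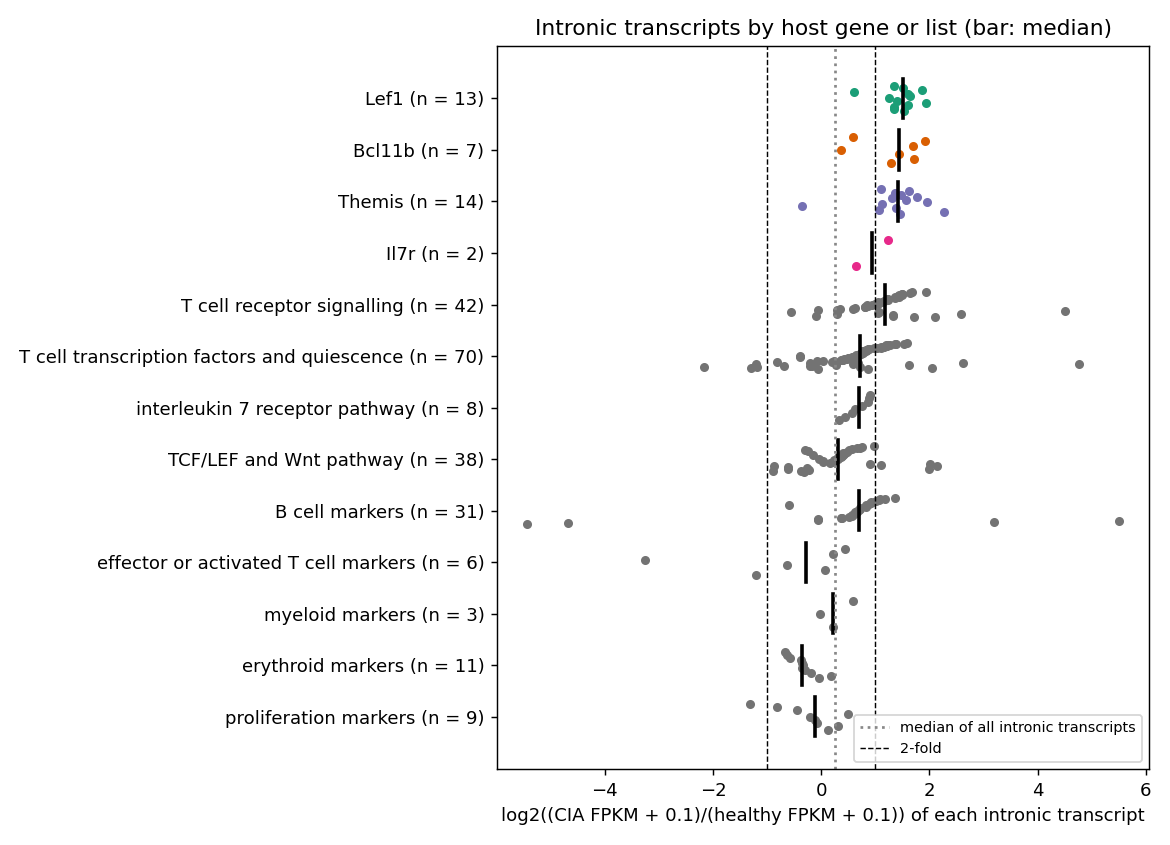
Log2 ratio of CIA to healthy FPKM (pseudocount 0.1) of each intronic transcript, by host gene for Lef1, Bcl11b, Themis and Il7r and by list below, with black bars at medians, a dotted line at 0.25, the median of all intronic transcripts, and dashed lines at 2-fold. Host gene medians were 0.94 to 1.51, against 1.19 for T cell receptor signalling, 0.69 for B cell markers and -0.35 for erythroid markers.

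Among the 636 host genes with at least 5 intronic transcripts, Lef1 ranked 6, Bcl11b 9 and Themis 10 by median log2 ratio. Other hosts with medians close to the 1.42 of the set, over the same 2 libraries, included Gm16083 at 1.42, 9530026P05Rik at 1.40, Ldlrad4 at 1.38 and St6gal1 at 1.36. St6gal1, a sialyltransferase gene, had all 5 transcripts 2-fold higher with an SD of 0.18, whereas Gm16083 had an SD of 1.29 over 6. The SD was 0.33 for Lef1, 0.59 for Bcl11b and 0.60 for Themis.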

How the data were processed

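Spleen RNA of 1 CIA and 1 healthy library was analysed. TRIzol was used to extract total RNA and Ribo-Zero to remove ribosomal RNA, per the labels' protocols. StringTie, a transcript assembler, is listed in the submitters' processing notes. The sources used here do not name the aligner, the strand setting or the authors' statistical test. FPKM per transcript came from 2 tables the authors deposited, per the file headers, and the value 0.0001 was read as 0. CIA FPKM over healthy FPKM gave the deposited ratio (fold) within 0.0001 for all 32012 transcripts, and the authors' log2 column is its logarithm. In 2 damaged cells of the annotated table, outside the set, the CIA FPKM was restored from the deposited ratio, so that check is met there by construction. Each p-value and q-value is quoted as the authors deposited it. All 15172 annotated transcripts had GENCODE M21 coordinates, so GRCm38 is given as the build.

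From these values log2 ratios with a pseudocount of 0.1 FPKM were computed where CIA or healthy FPKM reached 0.5. The pseudocount understates the ratios of low transcripts. No test across mice can be made from 1 library per group, so a 2-fold size rule was used. The calculation was checked on simulated data, which gives no error rate for these libraries. Introns are those of the main GENCODE model (201) of each gene. The members and gene lists were chosen with earlier results of these data known. Named were the 3 annotated lncRNAs, every intronic transcript of hosts with 8 or fewer, otherwise the 3 highest, the 3 lowest, the 2 most abundant and the spliced ones, annotated lncRNAs within 50 kb, up to 4 hosts per list and the 5 hosts of nearest median, of which 1 is not reported here. Outside this rule, MSTRG.25172.1, MSTRG.25168.1, MSTRG.3246.1, MSTRG.12997.3, MSTRG.12996.1, Sh2d1a and Tcf7l1 were named with their values known. Copies of the lncRNA sequences were sought with blastn 2.17.0. The alternatives were other pseudocounts, filters, centring, length-weighted levels and a 4-fold rule. Scripts ran in Python 3.11.15 with pandas 2.3.3, numpy 2.4.6 and scipy 1.17.1, and plots were drawn in matplotlib 3.10.9.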

Additional observations from a re-analysis of the deposited data

How the results depend on the processing

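Of 71 recomputed values, 66 moved by less than 1.5 times without a change of direction, leaving out the median of all intronic transcripts centred on itself, which is 0 by construction. With a pseudocount of 1 FPKM, 18 of the 36 intronic transcripts were 2-fold higher in the CIA library, against 31 with 0.1 FPKM, while the share of all intronic transcripts was 6.96%, against 15.6%. The log2 ratios with that pseudocount were 1.43 for Gm42449 and 1.03 for Gm44175. The larger pseudocount shrinks ratios of low values by construction. With a 4-fold rule and the pseudocount of 0.1 FPKM, 1 transcript was counted, a smaller share than the 4.24% of all intronic transcripts. Centring on the annotated median turned the median of all intronic transcripts to -0.047. The host gene medians stayed between 1.05 and 1.58 for Lef1, 1.01 and 1.71 for Bcl11b, 0.89 and 1.53 for Themis and 0.65 and 1.02 for Il7r over all alternatives, among them transcripts of at least 1000 bases alone, which was chosen after seeing the data and leaves none for Il7r. No paired analysis was possible because there was a single library on either side (CIA, healthy). Without read counts, what depth limits cannot be given.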
